A study of Homo sapiens with 4 samples.

Results

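A set of 10 genes known as targets of the transcription factors ATF4 and CHOP was followed through 4 RNA-sequencing libraries of slow-cycling and unselected breast cancer cells. They are CHAC1, DDIT3, TRIB3, ASNS, PPP1R15A, STC2, VLDLR, CTH, NUPR1 and GPT2, which make up 10 of the 58735 genes of the deposited count table, and all 10 had a mean of at least 1 CPM, the reads of a gene scaled to a fixed library size. They were picked by name with their reads in these libraries and their ratios to the Bulk library already known. Differences from Bulk are therefore given for them as a description, with no p-value, and a count of those past the call rule used for all genes is printed for reference only.

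In the integrated stress response, kinases that sense amino-acid shortage, misfolded protein in the endoplasmic reticulum, haem shortage or double-stranded RNA phosphorylate the initiation factor eIF2. General translation falls, while translation of ATF4 mRNA increases. ATF4 binds with C/EBP-family partners to C/EBP-ATF response elements (CARE) near genes of amino-acid supply and tRNA charging, and it induces DDIT3, which encodes CHOP, a factor that acts with ATF4 when stress lasts. The response can support survival of tumour cells or, when prolonged, contribute to their death.

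The cells were of the line MDA-MB-231, which was established from a human triple-negative breast tumour, and were transduced with TetOn-H2BeGFP, a histone H2B-eGFP reporter that doxycycline switches on. All 4 groups came from cells given doxycycline (5 μg/ml) over 3 days, stained with Claret and Violet dyes and chased for 12 days, during which label is diluted by division. The top 1% for retained Claret, eGFP or Violet were sorted as 3 slow-cycling populations, and Bulk was sorted with no fluorescence gate. Each group holds 1 library, so no difference has a replicate check. Nothing in the labels says whether the sorts came from 1 culture.

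Libraries are named here by their titles, and the treatment field names another sort in every sample. In that field the library titled Bulk is Claret+, the one titled Claret is eGFP+, the one titled H2B-eGFP is Violet+ and the one titled Violet is un-gated. The deposited columns of reads and FPKM are headed Bulk, Claret, EGFP_H2B and Violet, the names in the titles. Directions against Bulk rest on the titles and these headings. With the treatment field in their place, 0 of the 10 genes were called higher in any slow-cycling library. What does not depend on the names is that 1 library, titled Bulk, stood below the other 3 for all 10 genes.

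Summed reads ran from 15508179 to 16976909, and 3 reads, the limit that a count of 0 allows, correspond to 0.177 to 0.193 CPM. Mitochondrial genes held 4.18% of reads in Bulk and 5.06% to 5.48% in the slow-cycling libraries. Scaling without them shifted the 30 log2 ratios of the 10 genes to Bulk by 0.01 to 0.02. VIM, CD44, CAV1 and MSN, markers of this mesenchymal-type line, had 3742 to 24390 reads per library, while ESR1 had 3 to 7, CDH1 0 to 3 and PGR 0. EPCAM, an epithelial marker low in this line, had 28 reads (Violet) to 61 (eGFP), a difference of 2.08-fold that was called between those libraries. The 8 markers of leukocytes, endothelium, liver and pancreas summed to 4.06 CPM in Bulk and 5.22 to 7.18 CPM in the slow-cycling libraries, and CD3E and INS were at 0 throughout. Of these 8, VWF, an endothelial gene, was called higher in all 3, from 4 reads in Bulk to 19, 21 and 24 in Claret, eGFP and Violet. At 0.25 CPM in Bulk, VWF passed the filter of a mean of at least 1 CPM only through the slow-cycling libraries. PECAM1, the other endothelial marker, had more reads, at 57, 81, 54 and 87 in the same order from Bulk on, and was not called against Bulk. Their part in the results was not tested.

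Sequence near the gene starts is shown first because ATF4 and its partners act there. RefSeq windows (GRCh38.p14) of 300 bases, from 250 before to 50 after each start, were matched by symbol for 8 of the 10 genes. The entries for NUPR1 and GPT2 were missing. The CARE core TGATGNAA was searched on both strands, together with the cyclic-AMP response element TGACGTCA and the AP-1 site TGANTCA. AP-1 was included because the title of the series concerns it. Of all 27305 genes with a window, 4.46% held the CARE core, 2.25% the cyclic-AMP element and 9.37% the AP-1 site. The 3 cores can share letters (TGA) but no match below overlaps another.

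Each line gives the strand of the gene 5′ to 3′ with the match in capitals. These 4 stretches are shown because they hold every match to the 3 cores in the windows of the 8 genes.
CHAC1 (chr15:40953251-40953280, plus, CARE core read on the opposite strand): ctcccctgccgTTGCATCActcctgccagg
ASNS (chr7:97872458-97872487, minus, CARE core): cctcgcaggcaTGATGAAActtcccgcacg
DDIT3 (chr12:57520737-57520766, minus, AP-1 site): gcgcgcgcgcaTGACTCAcccacctcctcc
PPP1R15A (chr19:48872352-48872381, plus, cyclic-AMP element): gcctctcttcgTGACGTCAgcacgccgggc

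The CHAC1 match begins at position -209 and the ASNS match at -68 from their RefSeq starts. Both lie in the 5′ UTR exon of a longer GENCODE 29 transcript of the same gene. The PPP1R15A match begins at -58, upstream of all transcripts of that gene in GENCODE 29. The DDIT3 match begins at -241 or -238 from 2 RefSeq starts, within the span of longer transcripts of DDIT3 and of MBD6 on the other strand. TRIB3, STC2, VLDLR and CTH held none of the 3 cores in these windows, which says nothing of elements elsewhere in those genes. No library here measured binding of a factor, so the matches are a description of letters.

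The upstream part of the PPP1R15A window (chr19:48872171-48872391, plus strand, 221 bases) is the only stretch before every annotated transcript of its gene that holds one of these matches, and it is shown whole with the cyclic-AMP element in capitals.
PPP1R15A upstream: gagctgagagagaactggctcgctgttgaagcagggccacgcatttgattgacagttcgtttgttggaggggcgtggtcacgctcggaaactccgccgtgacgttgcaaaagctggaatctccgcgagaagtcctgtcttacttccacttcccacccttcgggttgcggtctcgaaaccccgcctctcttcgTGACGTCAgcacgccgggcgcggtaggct

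The 10 genes together took 0.0258% of the Bulk reads, 0.0925% of those of Claret, 0.0885% for eGFP and 0.0848% for Violet. Values below are in this order of libraries unless stated, and CPM is scaled by TMM, a trimmed mean that adjusts for the makeup of each library. The log2 ratios are of CPM with a prior count of 2, with 95% exact (Clopper-Pearson) intervals that cover counting error only. In pooled RNA, more cells with a transcript and more transcript per cell cannot be told apart.

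**Figure D1:**
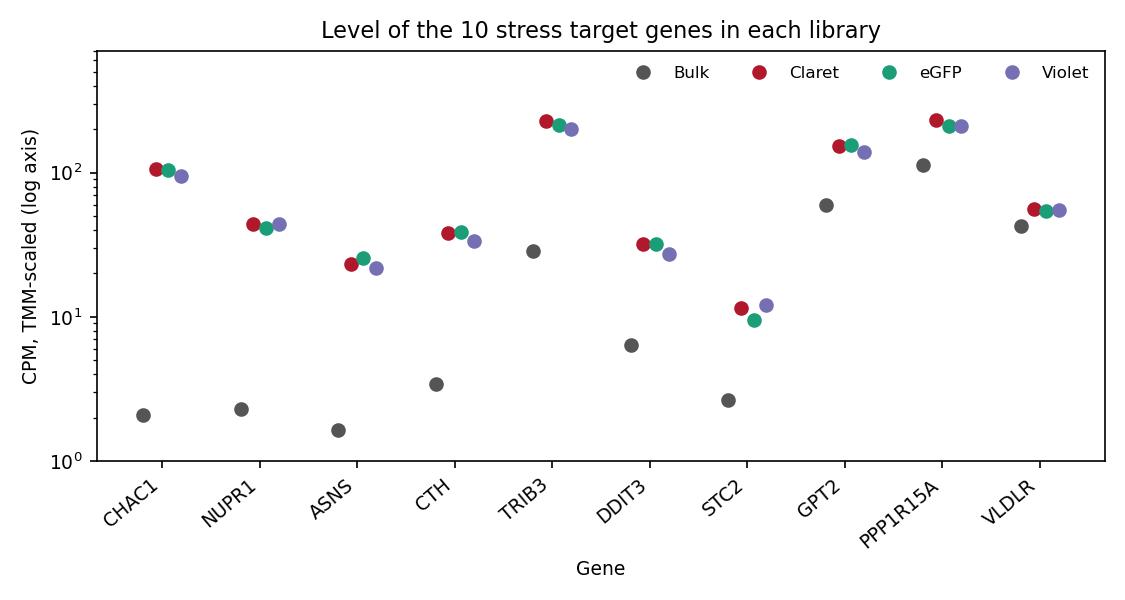
Level of each gene (TMM-scaled CPM, log axis) in the 4 libraries, 1 point per library, genes ordered by their ratio to Bulk. The Bulk point is the lowest for all 10 genes; the distance is widest for CHAC1 (2.09 against 94.5 to 107 CPM) and narrowest for VLDLR (42.6 against 54.0 to 55.8 CPM).

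Among regulators of the response, DDIT3 (ENSG00000175197, chromosome 12, 57516588 to 57521737) encodes CHOP. Bulk had 101 reads of it, Claret 541, eGFP 510 and Violet 426. The 3 slow-cycling libraries lay far above Bulk and close to each other. The log2 ratio was 2.29 (2.0 to 2.63) in Claret, 2.30 (2.01 to 2.65) in eGFP and 2.06 (1.76 to 2.41) in Violet. DDIT3 overlaps MARS, the methionine tRNA synthetase gene, on the opposite strand by 982 bases, and it holds the miRNA gene MIR616, whose 2, 32, 34 and 20 reads raised the DDIT3 ratios to no more than 2.37 when added. Whether strand was used in counting is not given in the sources used here, so reads in the shared bases cannot be assigned.

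TRIB3 (ENSG00000101255, chromosome 20, 362835 to 397559) encodes a pseudokinase that binds ATF4 and AKT and is induced by ATF4 and CHOP. Its reads were 451 in Bulk and 3895, 3381 and 3136 in the slow-cycling libraries. The log2 ratios were 3.00, 2.89 and 2.79, or 7.98-, 7.40- and 6.93-fold. TRIB3 alone made up 29.7% to 30.3% of the summed CPM that the 10 genes gained over Bulk, the largest share of any of them.

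NUPR1 (ENSG00000176046, chromosome 16, 28532708 to 28539174) encodes a small stress-induced chromatin protein. Bulk had 36 reads of it, and the others had 742, 656 and 688. That is a log2 ratio of 4.19, 4.10 and 4.19, with intervals that together span 3.69 to 4.78. Of its 31-base words, 11.9% also occur in other genes, and the handling of reads that match several genes is not given in the sources used here.

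PPP1R15A (GADD34; ENSG00000087074, chromosome 19, 48872392 to 48876057) encodes the subunit that brings a phosphatase to eIF2 and so closes the loop of the response. By FPKM, the level per length described below, it was the first of the 10 in every library. Bulk had 1785 reads of it, and the slow-cycling libraries had 3942, 3347 and 3313. The log2 ratios were small beside those above, at 1.03 (0.95 to 1.12), 0.89 (0.81 to 0.98) and 0.89 (0.81 to 0.98). The Claret value was the only one at or past 1, the size used for a call, and it was 0.98 after correction for GC content.

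Among enzymes of amino-acid metabolism, ASNS (ENSG00000070669, chromosome 7, 97852118 to 97872542), which makes asparagine, went from 26 reads in Bulk to 395, 405 and 345 in the slow-cycling libraries. The log2 ratios were 3.72, 3.85 and 3.63. All of ASNS lies within AC079781.5, a transcript on the same strand, and 42.5% of the 31-base words of ASNS also occur in another gene. AC079781.5 went from 121 reads in Bulk to 220, 232 and 175. With its reads added, ASNS had 147, 615, 637 and 520 reads and log2 ratios of 1.94, 2.09 and 1.81. The size for ASNS thus depends on how shared reads were assigned, and its direction was the same both ways.

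CTH (ENSG00000116761, chromosome 1, 70411218 to 70439851), which makes cysteine from cystathionine, had 54 reads in Bulk against 647, 611 and 528. Its log2 ratios were 3.43, 3.44 and 3.24. GPT2 (ENSG00000166123, chromosome 16, 46884378 to 46931297), the mitochondrial alanine aminotransferase, started from a higher base of 942 reads and reached 2592, 2474 and 2175. Its log2 ratios of 1.35, 1.38 and 1.21 correspond to 2.55-, 2.60- and 2.31-fold. The 3 enzymes thus differed in size more than in direction.

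CHAC1 (ENSG00000128965, chromosome 15, 40952962 to 40956519) encodes a cyclotransferase that degrades glutathione. Bulk had 33 reads of it, Claret 1810, eGFP 1652 and Violet 1488. The log2 ratios of CHAC1 were the largest of the 10 at 5.59 (5.17 to 6.21), 5.55 (5.14 to 6.18) and 5.41 (5.00 to 6.04), or 48.1-, 46.9- and 42.7-fold. No 31-base word of CHAC1 occurs in another gene.

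The last pair are a secreted protein and a receptor. STC2 (ENSG00000113739, chromosome 5, 173314713 to 173329503), a secreted glycoprotein, had 42 reads in Bulk against 196, 151 and 190, with log2 ratios of 2.06, 1.79 and 2.13. VLDLR (ENSG00000147852, chromosome 9, 2621834 to 2660053), a lipoprotein receptor, had 671 reads against 948, 858 and 860. VLDLR had the smallest log2 ratios, 0.39 (0.25 to 0.54), 0.34 (0.19 to 0.49) and 0.36 (0.21 to 0.51). Its antisense neighbour VLDLR-AS1, which overlaps 21526 bases of it on the other strand, went from 6 reads to 167, 148 and 162. With those reads added the VLDLR ratios were 0.61, 0.56 and 0.59, still under 1.

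By the call rule (adjusted p under 0.05 in a two-sided exact binomial test on the reads of 2 libraries, Benjamini-Hochberg over 14585 genes, and a log2 ratio of at least 1), Claret had 9 of the 10 genes higher than Bulk, eGFP 8 and Violet 8. This rule marked 11.2%, 11.9% and 11.6% of all genes kept as higher, and 6.72%, 7.64% and 6.91% as lower. The 8 genes called in all 3 are all but PPP1R15A and VLDLR, where 8.49% of all genes kept were higher in all 3 and 4.93% lower. These counts are no test of the 10 genes, which were chosen with them known, and nothing is read from them. Median log2 ratios of the 10 were 2.64, 2.59 and 2.46, and those of all genes kept were -0.01, -0.01 and 0.01. The comparisons share the Bulk library, so a low or high draw of Bulk enters all 3. Of the 10 genes, 5 had under 100 reads in Bulk, which sets the width of their intervals.

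**Figure D2:**
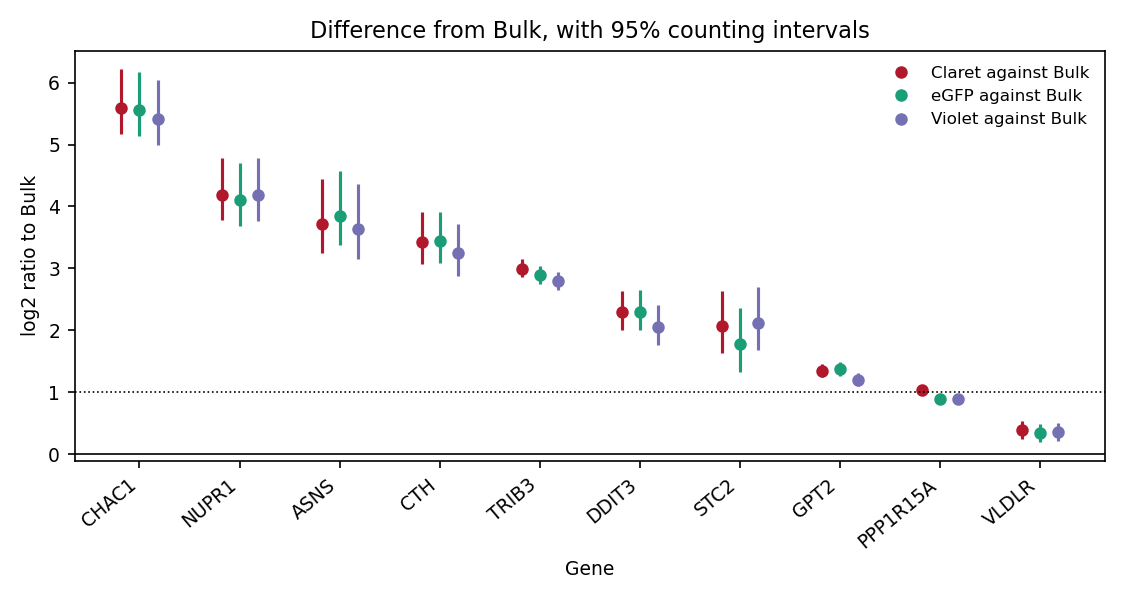
The log2 ratio to Bulk of each gene in Claret, eGFP and Violet, with 95% counting intervals as lines. The dotted line marks 1, the size used for a call; CHAC1 lies above 5 in all 3 libraries, PPP1R15A lies on either side of the dotted line and VLDLR lies below it.

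Levels between genes were compared per length, with the deposited FPKM (fragments scaled by exonic length and library size). The summed FPKM of the 10 was 68.4 in Bulk and 279, 264 and 244 in the others, and its makeup differed. PPP1R15A held 54.3% of the sum in Bulk and 25.6% to 27.4% in the slow-cycling libraries. CHAC1 held 1.51% in Bulk and 18.5% to 19.0% in the others, which moved it from the seventh place of the 10 to the third. TRIB3 held 12.4% in Bulk and 23.3% to 24.0% in the others. Among all genes of the table, CHAC1 ranked 12639 by FPKM in Bulk and 715, 731 and 791 in the slow-cycling libraries.

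In Bulk, the order by FPKM was PPP1R15A (37.1), GPT2 (9.54), TRIB3 (8.45), DDIT3 (4.97), VLDLR (4.62), CTH (1.44), CHAC1 (1.03), STC2 (0.441), NUPR1 (0.408) and ASNS (0.376). In Claret it was PPP1R15A (75.1), TRIB3 (66.8), CHAC1 (51.8), DDIT3 (24.4), GPT2 (24.0), CTH (15.8), NUPR1 (7.71), VLDLR (5.98), ASNS (5.22) and STC2 (1.88). The eGFP order was that of Claret. Violet differed from it in 1 pair of neighbours, GPT2 (21.3) and DDIT3 (20.3). With 1 library a group there is no spread over replicates to separate neighbours in these orders. The place of ASNS leaves out reads that it may share with AC079781.5, and its FPKM with those reads was not computed.

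**Figure D3:**
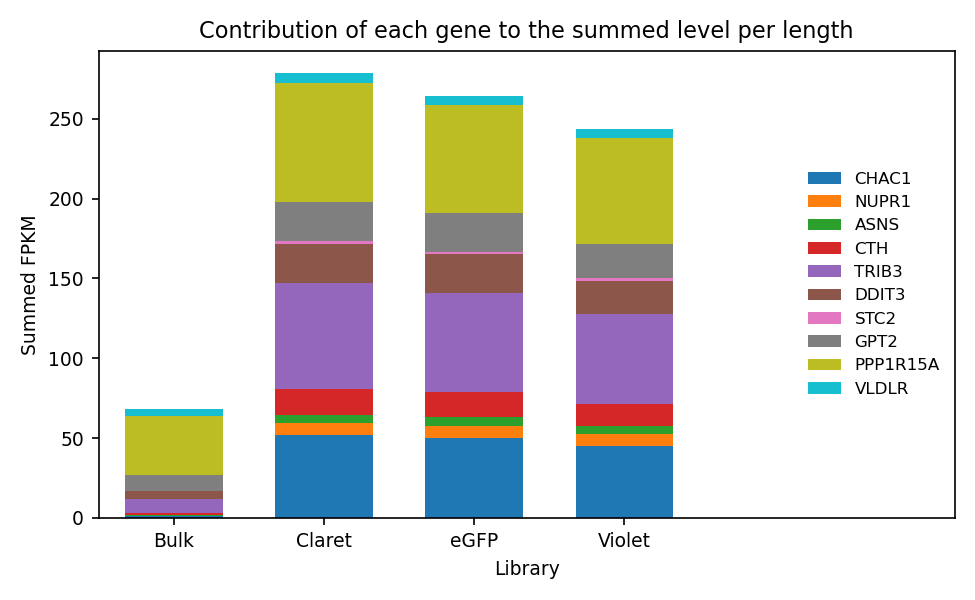
Deposited FPKM of the 10 genes stacked for each library, so that the height of a bar is their summed level per length. The bars reach 68.4 in Bulk and 244 to 279 in the slow-cycling libraries; PPP1R15A fills 54.3% of the Bulk bar, and CHAC1 and TRIB3 widen in the other 3.

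The 3 slow-cycling libraries were compared with each other without Bulk. The genes were named for their ratios to Bulk, but their reads in these libraries were known when they were chosen, so the choice is not independent of this comparison. None of the 10 genes was called in any of the 3 pairs, because no log2 ratio reached 1; of all genes kept, the rule marked 0.761% in the pair Claret and eGFP, 0.802% in Claret and Violet and 1.01% in eGFP and Violet. At any size, 2, 4 and 3 of the 10 had an adjusted p under 0.05 in these pairs, where 12.6%, 17.4% and 17.2% of all genes kept did. The counts at an unadjusted p under 0.05 were 2, 6 and 7. The share of all genes kept at that threshold was not computed, so nothing is read from these counts. With edgeR's exact test and an assumed coefficient of variation of 0.2 between libraries of 1 condition, 0 of the 10 had an adjusted p under 0.05 in each pair. The exact binomial test compares those libraries and not the sorts, as it holds no variation between cultures.

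TRIB3 differed in each pair, with Claret above eGFP by a log2 ratio of 0.11 (adjusted p = 0.01596) and above Violet by 0.20 (adjusted p = 1.625e-07), and eGFP above Violet by 0.09 (adjusted p = 0.049). PPP1R15A was higher in Claret than in eGFP by 0.14 (adjusted p = 0.0008187) and than in Violet by 0.14 (adjusted p = 0.0005317). CHAC1 was lower in Violet than in Claret by 0.17 (adjusted p = 0.006511) and than in eGFP by 0.14 (adjusted p = 0.0467). These are differences of 1.07- to 1.15-fold in genes with at least 1488 reads in each slow-cycling library. GPT2 was lower in Violet than in Claret by 0.14 (adjusted p = 0.006479) and than in eGFP by 0.17 (adjusted p = 0.0008446). With no TMM, or with no filter on low counts, CHAC1 and TRIB3 no longer had an adjusted p under 0.05 for eGFP against Violet, and of the 10 only GPT2 did.

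The other 6 genes had no adjusted p under 0.05 in any pair. The widest difference among them was that of STC2, -0.34 for eGFP against Violet (interval -0.66 to -0.03, adjusted p = 0.1221). DDIT3 was next, with 0.24 for eGFP against Violet (0.06 to 0.43, adjusted p = 0.0548) and 0.23 for Claret against Violet (0.05 to 0.42, adjusted p = 0.06367). NUPR1 had 0.00 for Claret against Violet (-0.15 to 0.15), and VLDLR had ratios of -0.02 to 0.05 in the 3 pairs. Intervals for these 6 genes all lay within 0.67 of 0. Violet held the lowest CPM for 7 of the 10 genes and eGFP for 3. Unscaled library sizes made this 6 and 4, and DESeq2 size factors 8 and 2. Claret held the lowest for none under any of these scalings. With TMM, 50.4% of all genes kept were higher in Claret than in Violet, and 49.9% were higher in eGFP than in Violet. The share of all genes kept with Violet lowest of the 3 was not computed, so nothing is read from these counts.

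**Figure D4:**
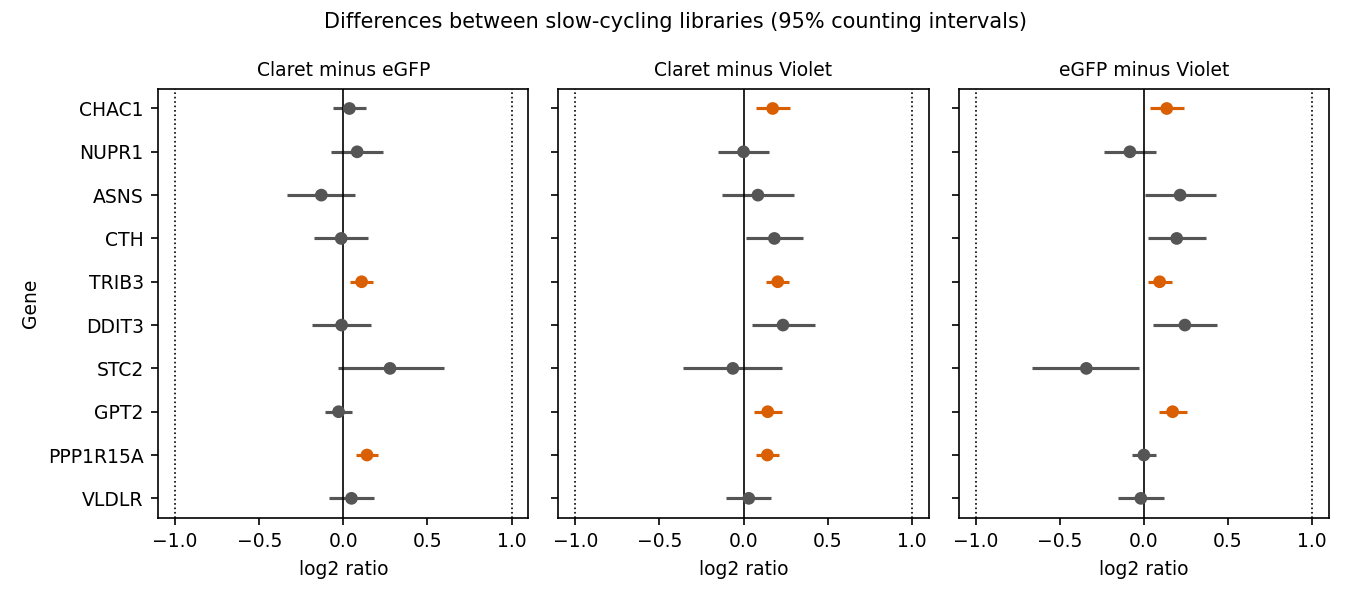
Log2 ratio of each gene between each pair of slow-cycling libraries, with 95% counting intervals. Orange marks an adjusted p under 0.05 and grey the rest; dotted lines mark a size of 1, which no interval reaches.

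Genes around the 10 in the same response were described by lists drawn from general knowledge of the pathway, with results of these data in view. Counts are of genes called against Bulk by the same rule in all 3 slow-cycling libraries, beside the 8.49% higher and 4.93% lower of all genes kept. Of the 6 bZIP transcription factors of the response, 5 were called higher and 1 lower in all 3. Reads of ATF4 numbered 3629 in Bulk and 14198, 12544 and 11767 in the slow-cycling libraries. Its log2 ratios were 1.86, 1.78 and 1.70. ATF3, a stress-induced bZIP factor, had ratios of 3.21, 3.40 and 3.15. CEBPB had 1.36, 1.45 and 1.38, and CEBPG, a dimer partner of ATF4, had 1.49, 1.58 and 1.40. JDP2, a repressor related to ATF3, had 1.5, 1.74 and 1.80. ATF5, also a stress-responsive factor, went the other way, from 263 reads to 97, 89 and 71 (-1.53, -1.55 and -1.86). The bZIP medians were 1.5, 1.66 and 1.55.

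The machinery upstream of ATF4 was followed next. Of 17 genes for the eIF2 kinases and their regulators, eIF2, eIF2B and the second phosphatase subunit, 0 were called higher or lower in all 3 by the exact binomial test, and 0 by edgeR's exact test. EIF2B3, named after its values were seen, was called lower in eGFP (-1.01) and Violet (-1.02). Ratios of the others reached -0.74, -0.89 and -0.96 for EIF2S1, -0.78, -0.88 and -0.73 for EIF2B1 and 0.83, 0.71 and 0.61 for EIF2S2, subunits of eIF2 and eIF2B that were also named after their values were seen. The haem-regulated kinase EIF2AK1 had log2 ratios of 0.08, 0.14 and 0.11. The RNA-activated kinase EIF2AK2 had -0.62, -0.56 and -0.57. The endoplasmic reticulum kinase EIF2AK3 (PERK) had 0.17, 0.16 and 0.05, and the amino-acid sensor EIF2AK4 (GCN2) had 0.11, 0.15 and 0.08. PPP1R15B, the constitutive counterpart of PPP1R15A, had 0.02, 0.04 and 0.03. The list medians were -0.04, -0.12 and -0.17. RNA levels do not show the activity of these kinases.

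Of 18 genes of amino-acid transport and synthesis, 17 were kept, and 10 were called higher and 0 lower in all 3, with medians of 1.37, 1.22 and 1.29. The neutral amino-acid transporter SLC1A4 went from 129 reads in Bulk to 904, 848 and 914 (2.68, 2.69 and 2.81). ALDH1L2, a mitochondrial folate enzyme, had 7 reads against 39, 43 and 36 (2.09, 2.32 and 2.08). At 0.44 CPM in Bulk, ALDH1L2 passed the filter on mean CPM only through the slow-cycling libraries, so nothing is read from its call. PHGDH, the first enzyme of serine synthesis, had 445 against 2164, 1770 and 1763 (2.17, 1.97 and 1.98). Of 13 genes of cytosolic tRNA charging, 7 were called higher and 0 lower in all 3, with medians of 1.36, 1.24 and 1.16. SARS, CARS and AARS, the serine, cysteine and alanine synthetases, had the largest ratios in that list, at 1.96 to 2.15, 1.78 to 1.91 and 1.71 to 1.83.

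Of 16 other targets of ATF4 and CHOP, 9 were called higher and 0 lower in all 3, with medians of 1.58, 1.63 and 1.54. INHBE and FGF21, counted in the 9, were under 1 CPM in Bulk. They passed the filter on mean CPM only through the slow-cycling libraries, so nothing is read from their calls. At any size, 14 lay above Bulk in all 3 and 2 lay below it. Those 2, named after their values were seen, were ERO1A (-0.53, -0.38 and -0.22) and BCL2L11 (-0.46, -0.41 and -0.40). INHBE, an inhibin subunit, went from 1 read in Bulk to 620, 615 and 431, and the counting intervals of its log2 ratios run from 6.27 to 14.6. ADM2, a peptide hormone, had 108 reads against 1795, 1577 and 1540 (3.92, 3.83 and 3.81). GDF15, a stress-induced secreted factor, had 227 against 3672, 2890 and 3383 (3.90, 3.65 and 3.89). FGF21, named because it had 0 reads in Bulk, had 30, 27 and 13 reads. Against the floor of 3 reads in the Bulk library, FGF21 was 9.28-, 8.92- and 4.34-fold higher. These values take its slow-cycling reads as exact, and its log2 intervals start lower, at 2.83, 2.76 and 1.61. With the floor in place the list medians were the same to 2 decimals.

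The XBP1 and ATF6 arms of the unfolded-protein response, which raise chaperones and degradation capacity of the endoplasmic reticulum, was followed in 21 genes. In all 3 libraries 4 were called higher and 0 lower, and the medians were -0.08, -0.12 and -0.12. ERN1 (IRE1, the nuclease that splices XBP1 mRNA) had log2 ratios of 2.16, 2.19 and 2.12. HERPUD1, a part of endoplasmic reticulum-associated degradation, had 1.39, 1.24 and 1.38. XBP1 had 1.34, 1.20 and 1.14, and the fourth, DNAJB9, a co-chaperone named after its values were seen, had 1.04, 1.24 and 1.05. The chaperones HSPA5, HSP90B1, CALR and CANX, named outside the rule and after their values were seen, were not called. HSPA5 had 0.64, 0.58 and 0.50 and HSP90B1 0.25 to 0.30, while CALR had -0.48 to -0.47 and CANX -0.44 to -0.40. With edgeR's exact test and an assumed coefficient of variation of 0.2, 2 of the 4 remained called, and XBP1 was not among them.

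**Figure D5:**
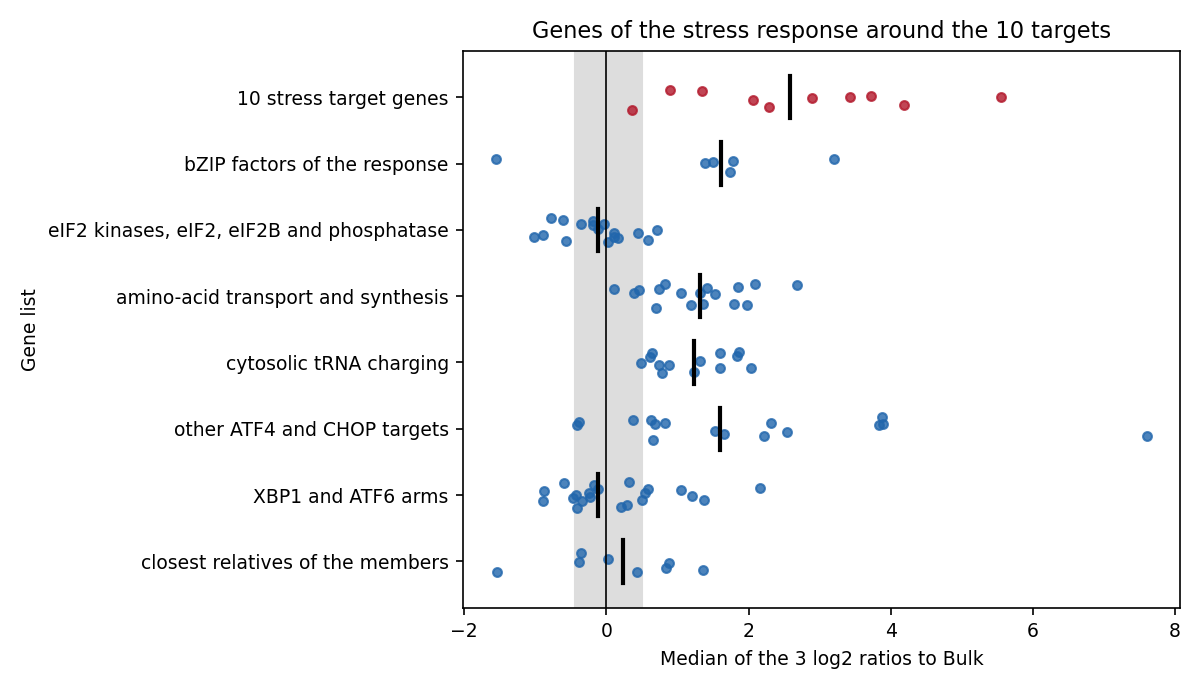
Each point is 1 gene, at the median of its 3 log2 ratios to Bulk; black bars are list medians, the grey band spans the quartiles of all genes kept, and points are spread vertically only for legibility. The lists of ATF4 targets, amino-acid genes and tRNA charging lie mostly right of the band; the eIF2 machinery and the XBP1 and ATF6 arms centre near 0.

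The promoter windows differed between these lists. The CARE core was found in 2 of 8 windowed genes of the 10, 3 of 6 bZIP factors (ATF3, CEBPG and JDP2), 5 of 13 amino-acid genes, 7 of 11 tRNA-charging genes, in 1 of 11 other targets of ATF4 and CHOP (FGF21), in 1 of 15 genes of the eIF2 machinery and in 1 of 20 genes of the XBP1 and ATF6 arms. The ER stress element, CCAAT followed after 9 bases by CCACG, was in 7 of those 20 and in 0 of the 8, where 0.0916% of all windowed genes held it. These counts describe the letters of short windows, and their relation to the ratios was not tested.

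Close relatives of the 10 were set beside them to show whether families moved together. Of 10 relatives, 8 were kept, and 1 was called higher and 1 lower in all 3. CHAC2, which encodes the other glutathione cyclotransferase, fell from 204 reads to 73, 70 and 69. Its log2 ratios were -1.56, -1.53 and -1.54. CHAC1 and CHAC2 thus lay on opposite sides of Bulk in all 3 libraries. GPT, the cytosolic alanine aminotransferase, had 19 reads against 44, 52 and 57 (1.03, 1.35 and 1.49), and its call was lost with GC correction and with edgeR's exact test. Neither gene reached a mean of 10 CPM.

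The remaining relatives were not called. TRIB1 had log2 ratios of 0.83, 0.87 and 0.83, and TRIB2 had -0.35, -0.60 and -0.08, beside 2.79 to 3.00 for TRIB3. LRP8, a lipoprotein receptor like VLDLR, had -0.43, -0.36 and -0.38, beside 0.34 to 0.39 for VLDLR. STC1 had 0.24, 0.43 and 0.46, beside 1.79 to 2.13 for STC2. NUPR2 had 0 reads in every library, and CBS, which makes the substrate of CTH, had 0 or 1.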

How the data were processed

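RNA from 4 sorted populations of MDA-MB-231 cells, 1 library each, was extracted with TRIzol, and NEBNext Ultra was the library kit, per the labels' protocols. HISAT2 2.0.5 and featureCounts 1.5.0-p3 are named in the submitters' processing notes. The genome build, the annotation, the use of strand and the handling of multi-mapping reads are not given in the sources used here. Start and end equal those of GENCODE 29 (GRCh38) for 58724 of the 58735 genes and for all 10 described.

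The deposited read counts per gene are whole numbers and are not normalized, per the file headers. The deposited FPKM come from these counts and were made by the authors: FPKM times length over count is 1 constant per library. They were used for levels between genes and, as log2(FPKM + 1), for 1 alternative.

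Genes with a mean of at least 1 CPM were kept (14585). TMM factors were taken from edgeR 4.0.16 (R 4.3.3), and log2 ratios used a prior count of 2. With 1 library a group edgeR's quasi-likelihood test could not be fitted, so reads of 2 libraries were compared by a two-sided exact conditional binomial test (SciPy 1.17.1) with Benjamini-Hochberg adjustment. Intervals are 95% exact (Clopper-Pearson) and, like floors of 3 reads, cover counting error only. The scripts were tested on simulated data.

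The 10 genes and the lists were chosen with earlier results of these data known. Names outside them follow a rule: all bZIP factors and relatives, the 4 eIF2 kinases and PPP1R15B, and up to 3 genes called higher and 2 called lower per other list. Exceptions are stated, and some genes that the rule or the lists hold are not reported here. Alternatives were 2 scalings, 2 filters, a prior count of 0.5, FPKM, groups from the treatment field, correction in 20 bins of GC content, edgeR's exact test with an assumed coefficient of variation of 0.2, and a shorter CARE core (TGATG). Adding reads of overlapping genes, and scaling without mitochondrial genes, were chosen after seeing the data.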

Additional observations from a re-analysis of the deposited data

Results flagged for a closer look

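Between slow-cycling libraries, 4 of the 10 genes differed with an adjusted p under 0.05 in the two-sided exact binomial test on reads, in 9 of 30 comparisons. Of all genes kept, 12.6% did so between Claret and eGFP, 17.4% between Claret and Violet and 17.2% between eGFP and Violet. As log2 ratios, TRIB3 differed by 0.11 (Claret minus eGFP), 0.20 (Claret minus Violet) and 0.0947 (eGFP minus Violet). CHAC1 differed by 0.17 (Claret minus Violet) and 0.14 (eGFP minus Violet). PPP1R15A differed by 0.14 (Claret minus eGFP) and 0.14 (Claret minus Violet). GPT2 differed by 0.14 (Claret minus Violet) and 0.17 (eGFP minus Violet). In 7 of the 9 Violet was the lower library, and these 7 rest on the same Violet library. The share of all genes kept with Violet lower at this threshold was not computed, so nothing is read from that count. All 9 are under 0.21, and each rests on 1 library per sort. With edgeR's exact test at an assumed coefficient of variation of 0.2, 0 remained.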

How the results depend on the processing

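No paired analysis was possible because each group holds 1 library, and no replicate could be left out. Under every alternative that kept the titles, all log2 ratios of the 10 genes to Bulk that could be computed stayed above 0 (30 of 30, or 27 of 27 with a filter at 10 CPM), and 7 to 9 were past the call rule per library. In the main setting the rule marked 11.2% to 11.9% of all genes kept as higher. That share was not computed under the alternatives, so nothing is read from these counts. Library scalings shifted them by at most 0.05, and log2(FPKM + 1) by up to 1.58. Adding reads of overlapping genes shifted the 9 ratios that it covers by -1.82 to 0.24.

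With groups from the treatment field, the counts called higher than Bulk were 0 for the 10 genes in each library and in all 3, and 0 for the bZIP, amino-acid, tRNA, other-target, XBP1 and ATF6, and relative lists (0 also for bZIP factors and relatives called lower). Then 9 of the 10 were called between Claret and eGFP and 8 between Claret and Violet, with 10 and 10 at an adjusted p under 0.05. By title these pairs are Bulk with Claret and Bulk with H2B-eGFP. There the rule marked 11.2% and 11.9% of all genes kept as higher than the library titled Bulk, and 6.72% and 7.64% as lower. The share at an adjusted p under 0.05 at any size was not computed for them, so nothing is read from these counts. The Claret ratios reversed to -5.41 (CHAC1), -2.06 (DDIT3), -2.79 (TRIB3), -3.63 (ASNS), -0.89 (PPP1R15A), -2.13 (STC2), -3.24 (CTH), -4.19 (NUPR1), -1.21 (GPT2) and -0.36 (VLDLR, not called with the titles either). STC2 became -0.0635 in eGFP and -0.34 in Violet, NUPR1 0.00 and -0.0822, and VLDLR -0.02 in Violet. Medians of 3 ratios reversed to 0.33 (ATF5), -0.0234 (CEBPB), -0.30 (JDP2), 0.0068 (CHAC2), -0.46 (GPT), -0.12 (SLC1A4), -0.008 (PHGDH), -0.24 (GDF15) and -0.14 (HERPUD1). This follows from the exchange of libraries.

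Counts at an adjusted p under 0.05 between eGFP and Violet were 1 without TMM and 1 with no filter, and with edgeR's exact test they were 0 in each of the 3 pairs. A filter at 10 CPM left 0 bZIP factors called lower and 0 relatives called higher or lower, because it removes those genes. The XBP1 and ATF6 list had 1 gene called lower with GC correction and 2 called higher with edgeR's exact test. Relatives called higher were 0 with log2(FPKM + 1), with GC correction and with edgeR's exact test; the cause was not tested. The log2 ratio of PPP1R15A in Claret no longer met the call rule with GC correction, log2(FPKM + 1) and edgeR's exact test. The shorter CARE core was found in the same 2 of the 8 windowed genes, and in 37.7% of all genes with a window. Low reads in Bulk (26 to 54 for 5 genes) limit the precision of the largest ratios.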
